A study of Mus musculus with 94 samples.

Results

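The stromal cells of periaortic fat that carried Wt1 reads were compared with those that carried none. The cells were selected on measured values. Among the cells of the deposited table, those with a Dcn value of at least 1000 and a Col3a1 value of at least 100 were taken as stromal, and within them a Wt1 value of at least 100 defined Wt1-positive cells and a Wt1 value of 0 defined Wt1-negative cells. The rule found 17 Wt1-positive and 38 Wt1-negative cells among 58 stromal cells and 85 cells in all. The other 3 stromal cells, numbers 11, 74 and 44, held Wt1 values of 7.28, 73.9 and 97.9 and entered neither class.

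The cells were primary PV-ADSCs, that is, stem or progenitor cells of the perivascular adipose tissue, from c57/bl mice aged 8 weeks. The fat around the thoracic aorta was digested with collagenase I, and live nucleated single cells were sorted as CD45-/CDH5-/CD29+/Sca1+ (CDH5 is also called CD144) and not cultured. SMARTseq v4 chemistry was used to make a library of each cell, and all cells belonged to a single condition. The labels name no animal and no sex for any cell. The study's methods give the strain as C57BL/6J and select male mice for surgery, without saying which mice gave the sorted cells. Hence the 17 and 38 cells were subsets of 1 sample and not replicates, and no p value, standard error or test between them was computed.

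Wt1 encodes a zinc finger transcription factor that was first known as the Wilms tumour suppressor. In the embryo it marks the mesothelium, the epithelial sheet that lines the body cavities and covers the organs, and it is needed in the heart and kidney for cells to pass between epithelial and mesenchymal states. In adult visceral fat Wt1 is known from the mesothelium and from stromal progenitors beneath it, and it is scarce in subcutaneous fat. Sca1, the antigen of the sort, is encoded by Ly6a and marks progenitors of the adventitia and of adipose stroma.

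Wt1 values in the 17 cells ran from 108 to 3120 with a median of 288. These values chose the cells and are given as a description only. The cells just inside the limit held 108 and 110, and the cell just outside it held 97.9. In recovered reads, which are the deposited values divided by the scaling factors found in the table, the same cells held between 90 and 2795 Wt1 reads with a median of 258. On that scale the order at the limit turned, since cell 25, which was kept, held 90 Wt1 reads, while cells 44 and 74, which were left out, held more, with 122 in cell 44, so the class of these cells was set by the scaling. The lowest Dcn value of a stromal cell was 6521 and the highest of the 27 other cells 269. The lowest belonged to cell 50, where 69 Dcn reads were multiplied by 94.5. The next lowest stromal cell held 18172 Dcn reads and the highest cell outside the class 248, so cell 50 counted as stromal through the scaling alone. None of those 27 cells held a Wt1 value above 0.

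**Figure D1:**
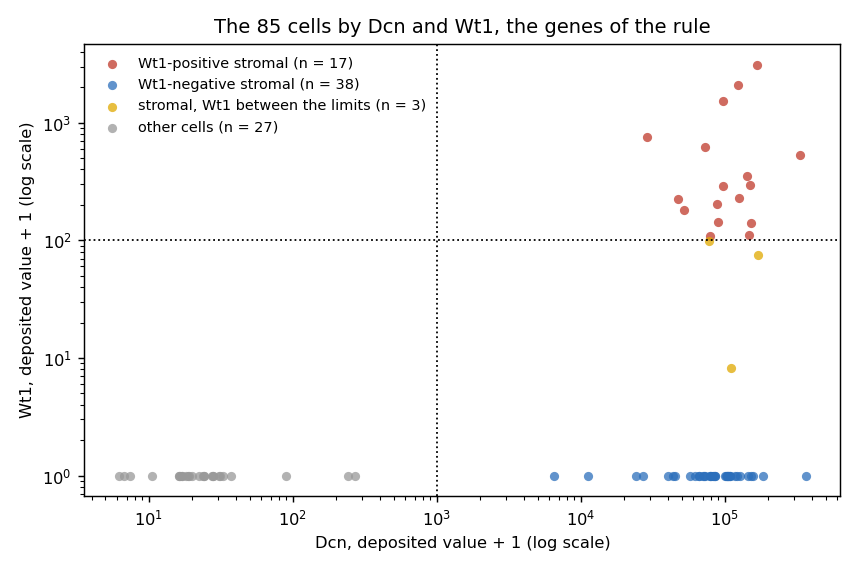
Each point is 1 of the 85 cells. The horizontal axis gives the deposited Dcn value plus 1 and the vertical axis the deposited Wt1 value plus 1, both on log scales, and the dotted lines mark the limits of 1000 and 100 (also plus 1). The 17 Wt1-positive cells lie between 108 and 3120 on the Wt1 scale, and no cell lies between Dcn values of 269 and 6521.

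The classes had similar depth, but the Wt1-positive cells held somewhat more genes. Recovered reads per cell ran from 1428530 to 4776510 with a median of 2920222 in Wt1-positive cells, and from 1146945 to 4164295 with a median of 3100376 in Wt1-negative cells. Genes above 0 ran from 1642 to 4148 with a median of 3076, compared with 850 to 4028 and a median of 2776.5. The ranges overlapped almost entirely. Cell 50, a Wt1-negative cell, stood apart with the fewest reads, the fewest genes and the lowest Dcn value of the stromal cells. Without it, 119 genes in place of 121 were called higher and 35 in place of 31 lower by the comparison described below. The part that the number of genes per cell plays in the shares below was not tested, but shares on reads thinned to 1146945 in every cell, and shares in cells with a shared range of genes, are given in the closing section.

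**Figure D2:**
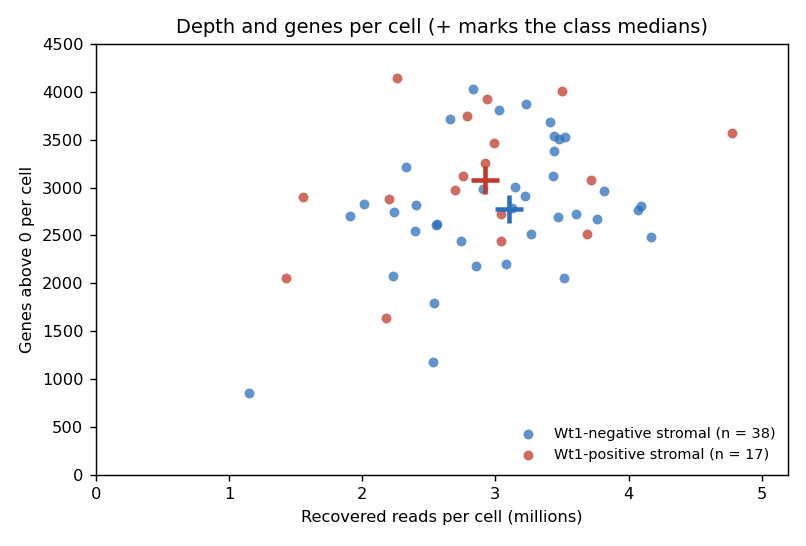
Each point is 1 of the 55 compared cells, with recovered reads on the horizontal axis and genes above 0 on the vertical axis. The crosses mark the class medians, 2920222 reads and 3076 genes in Wt1-positive cells and 3100376 reads and 2776.5 genes in Wt1-negative cells.

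Most cells of both classes carried stromal markers that the rule did not use. Gsn, an actin-severing protein, was above 0 in all 17 and all 38 cells. Col1a1, the main fibrillar collagen, was found in 17 and 37 cells, and the proteoglycan Lum in 17 and 35. Of the 13 general stromal markers, none differed by 30 percentage points or more between the classes, and their median difference was -1.24 points. Dpt, a dermatopontin gene used to mark universal fibroblasts, was found in 15 of 17 and in 38 of 38 cells. Pdgfra, the receptor that marks mesenchymal progenitors, was found in 13 of 17 and 33 of 38. Cells 18 and 29, described below, had Dpt and Pdgfra at 0, and cell 50 had 5 Dpt reads and Pdgfra at 0.

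Reads of Ly6a, the gene of the sort antigen Sca1, were not uniform among Wt1-positive cells. All compared cells were sorted as Sca1+, but no protein value is given for single cells. A Ly6a value of 0 means no reads, and whether the protein was present was not tested. Ly6a reads ran from 0 to 31470 with a median of 4192 in Wt1-positive cells, and from 0 to 38806 with a median of 10486.5 in Wt1-negative cells. Ly6a was above 0 in 12 of 17 Wt1-positive cells (70.6%, exact Clopper-Pearson 95% interval 44.04 to 89.7) and in 37 of 38 Wt1-negative cells (97.4%, 86.2 to 99.9). The difference of -26.8 points lay under the limit of 30 points used for a call, and the intervals overlapped. Without the pair of cells described next, it was 12 of 15 and -17.4 points. Here and below, intervals cover counting error only. All Ly6a-positive cells held at least 100 reads, so the counts were the same at that level. The Wt1-positive cells with Ly6a at 0 were cells 18, 29, 47, 54 and 85, and the Wt1-negative one was cell 50, the cell with the fewest reads. Itgb1, which encodes CD29, was found in 11 of 17 and in 22 of 38 cells, though all cells were sorted as CD29+. Cdh5, whose protein was selected against, was found in 2 and 5 cells, never at 100 reads. Of the 4 genes of the sort gate 3 had data, and Ptprc, which encodes CD45, was not among them.

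A pair of Wt1-positive cells, 18 and 29, carried the markers of mesothelium. Of the 12 mesothelial markers other than Wt1 that had data, cell 18 held 10 and cell 29 held 12 at 10 or more recovered reads, whereas no other Wt1-positive cell held more than 3 and no Wt1-negative cell more than 2. Msln, which encodes mesothelin, had 623 reads in cell 18 and 2622 in cell 29 and was at 0 in the other 53 cells. The uroplakin gene Upk3b had 6243 and 6130 reads, and Upk1b had 8048 and 513, again with all other compared cells at 0. The keratin gene Krt19 had 2085 and 1556 reads, and was above 0 in 1 further cell, a Wt1-negative one. Both cells had Ly6a, Pdgfra, Pi16, Dpt and Prrx1 at 0, and Cd34 had 2 reads in cell 18 and 0 in cell 29. At the same time they held 122940 and 137722 Dcn reads and 27674 and 26846 reads of the complement gene C3. Their Wt1 reads, 258 and 1982, were not at one end of the range of the class. They held 2724 and 3253 genes, near the class median of 3076. Whether each was 1 cell or a mesothelial and a stromal cell in the same well was not tested.

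The other 15 Wt1-positive cells lacked most of the mesothelial markers. Msln, Upk3b, Upk1b, Lrrn4, Krt8, Krt19 and Gpm6a were at 0 in all 15. Of these cells, 3 (numbers 23, 64 and 73) held 2 or 3 markers at 10 or more reads, drawn from Ezr, Rspo1 and Nkain4, and 1 Wt1-negative cell held 2. Summed over the list, mesothelial reads ran from 0 to 38390 in Wt1-positive and from 0 to 2619 in Wt1-negative cells, with a median of 0 in both, and no marker was found in the 27 cells outside the stromal class. Ezr, which links membrane and actin, was the only marker of the list that passed the filter on genes, with 5 of 17 and 5 of 38 cells. In these 15 cells Ly6a was found in 12, Dpt in 15, Pdgfra in 13 and Pi16, a marker of adventitial progenitors, in 14. Cells 47, 54 and 85 had no reads of Ly6a or of a mesothelial marker. Cells 47 and 85 held the highest Mgp reads of the Wt1-positive class, 96990 and 46288, along with Pi16 and Dpt.

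**Figure D3:**
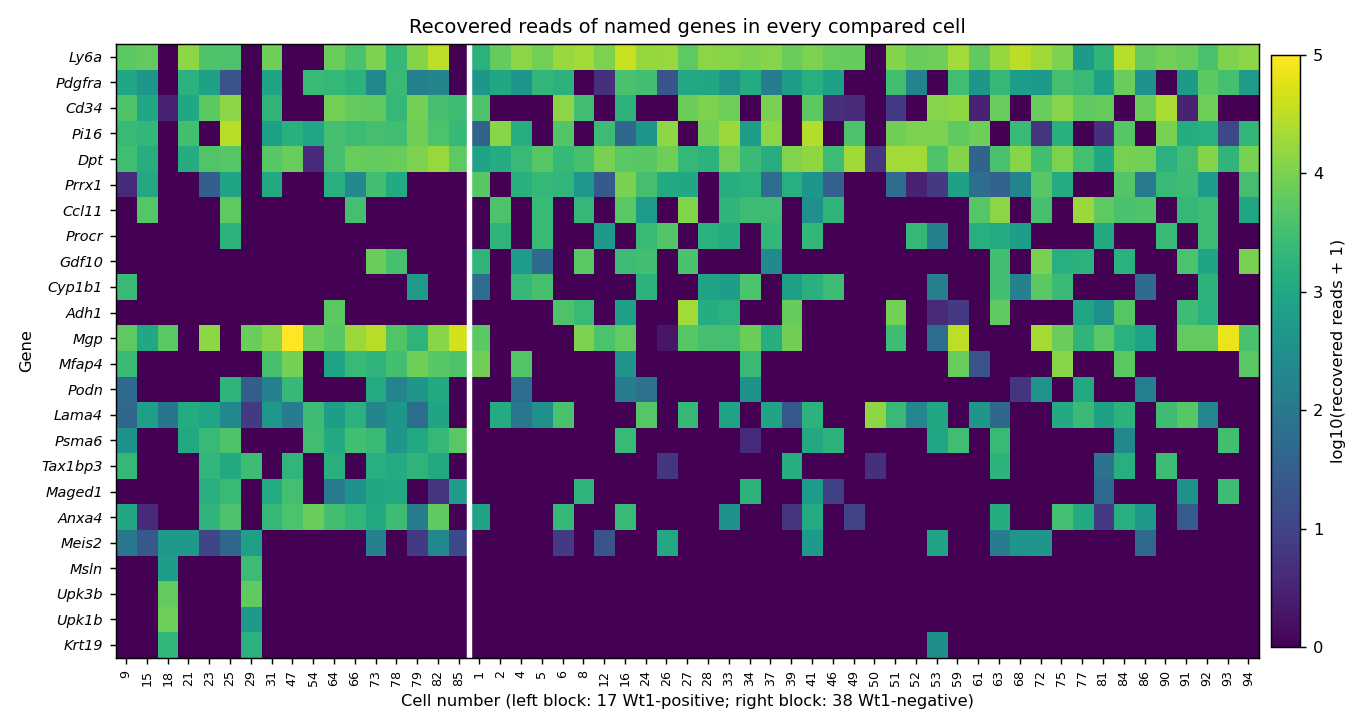
Columns are the 17 Wt1-positive cells (left of the white line) and the 38 Wt1-negative cells (right), rows are named genes, and the colour gives log10(recovered reads + 1). Msln, Upk3b and Upk1b have reads in cells 18 and 29 alone, Ly6a is at 0 in 5 cells on the left and in 1 on the right, and Ccl11 and Procr have reads in 3 and 1 cells on the left and in 21 and 17 on the right.

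The comparison over all genes used the share of cells with a value above 0. It covered 5202 genes that were above 0 in at least 10 of the 55 cells, leaving out Wt1, Dcn and Col3a1. A gene was called when the shares differed by at least 30 percentage points, which is a fixed size and not a test. By this rule 121 genes, 2.33% of those compared, were found in a larger share of Wt1-positive cells, and 31 genes, 0.596%, in a smaller share. Over all genes the median difference was 3.25 points, and 59.3% of genes had a larger share in Wt1-positive cells, and genes per cell were also higher in that class. The intervals of both shares did not overlap in 10 of the 121 and in 1 of the 31 called genes, with no allowance for the number of genes compared. At a minimum of 100 reads, 36 of the 121 and 8 of the 31 kept a difference of 30 points in the same direction. Processed or other pseudogenes made up 12 of the 121 and 10 of the 31. Reads of a pseudogene cannot be told from those of its parent gene, so these are uncertain.

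**Figure D4:**
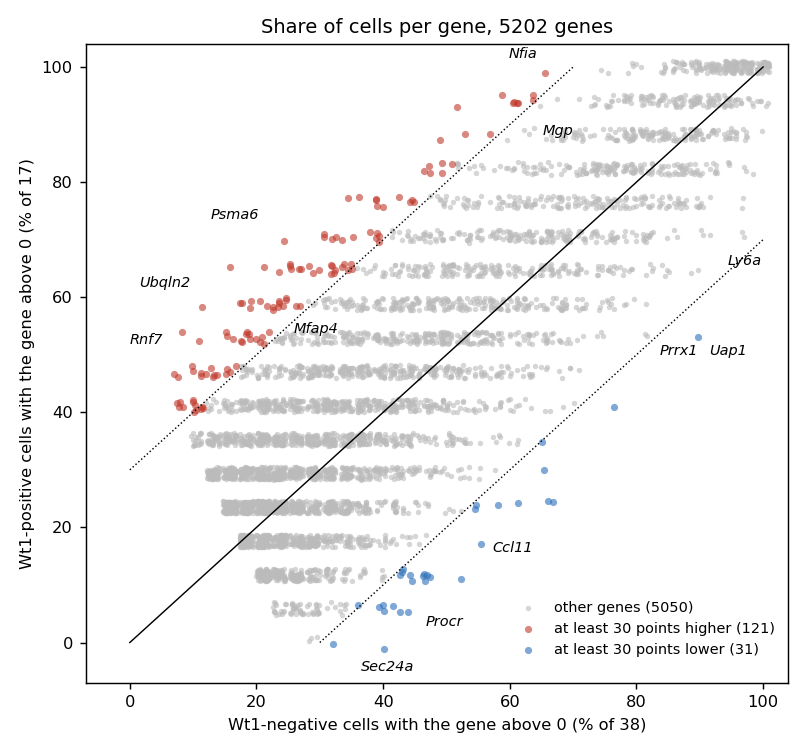
Each point is 1 of 5202 genes, with the percentage of the 38 Wt1-negative cells above 0 on the horizontal axis and of the 17 Wt1-positive cells on the vertical axis; points are moved by up to 1.1 points to separate them. The solid line marks equal shares and the dotted lines a difference of 30 points, beyond which lie 121 genes above and 31 below.

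Ccl11 and Gdf10, which encode secreted signals, were called lower. Ccl11 encodes eotaxin, the chemokine that draws eosinophils. It ran from 0 to 5632 reads with a median of 0 in Wt1-positive cells and from 0 to 17899 with a median of 753 in Wt1-negative cells. It was found in 3 of 17 (17.6%, 3.80 to 43.4) and in 21 of 38 cells (55.3%, 38.3 to 71.4), a difference of -37.6 points, and in no cell outside the stromal class. The 3 positive cells held 3353, 4785 and 5632 reads, so where Ccl11 was present its level was not low. Gdf10, a member of the TGF-β superfamily also called BMP3B, was found in 2 of 17 and 16 of 38 cells, a difference of -30.3 points. It lay at the limit, and the call was lost at 100 reads (-27.7 points), with Wt1 at 100 recovered reads (-25.4) and without cells 18 and 29 (-28.8).

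The chemokine and cytokine list as a whole had 17 genes that passed the filter. Of these, 1, Ccl11, was called lower and none higher, compared with 0.596% and 2.33% of all genes. The median was -4.80 points against 3.25 over all genes. Other members with low values in Wt1-positive cells were Il1r1, the interleukin-1 receptor, in 3 of 17 and 17 of 38 cells, and Osmr, the oncostatin M receptor, in 1 of 17 and 11 of 38. Neither reached 30 points. At the other end, the atypical chemokine receptor Ackr3 was found in 15 of 17 and 26 of 38.

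Genes of the complement list lay on the lower side. The list also holds C1qtnf1 (0.464 points), C1qtnf2 (-8.82) and C1qtnf7 (-10.7), which encode C1q-related secreted proteins and not complement components. Of 16 that passed, 13 had a smaller share in Wt1-positive cells, compared with 39.9% of all genes, and 2 were called lower, compared with 0.596%. None was called higher, and the median was -8.98 points against 3.25 over all genes. Cfb, factor B of the alternative pathway, was found in 2 of 17 and 16 of 38 cells (-30.3 points), a call that was lost at 100 reads (-20.4 points). C1s2, a serine protease gene of the classical pathway and a close paralog of C1s1, was found in 2 of 17 and 18 of 38 (-35.6 points), but at 100 reads in 2 and 1 cells, so its direction turned, with 9.13 points. C1s1 itself was found in 13 of 17 and 34 of 38. C3, the central component, was found in 15 and 37 cells. Cd55, which protects cells from complement and also marks adventitial progenitors, was at the other end with 9 of 17 and 11 of 38 cells.

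Procr had one of the clearest patterns by cell count. It encodes the endothelial protein C receptor, which also marks progenitors in several tissues. It was found in 1 of 17 Wt1-positive cells, with 1701 reads (5.88%, 0.149 to 28.7), and in 17 of 38 Wt1-negative cells with up to 4507 reads (44.7%, 28.6 to 61.7). The difference was -38.9 points, and the counts were the same at 100 reads. Adh1, an alcohol dehydrogenase that also oxidises retinol, was found in 1 of 17 and 16 of 38 cells (-36.2 points). Sec24a, a coat protein of vesicles that leave the endoplasmic reticulum, was found in 0 of 17 cells (exact interval up to 19.5%, or 17.6% by the limit of 3 cells) and in 15 of 38 (39.5%, 24.04 to 56.6). It was the 1 gene called lower whose intervals did not overlap, but only 6 of its 15 cells held 100 reads. Uap1, an enzyme of the hexosamine pathway, was found in 9 of 17 and 34 of 38 cells, but the difference shrank to -7.59 points at 100 reads. Its median over all cells was 331 and 333 reads, but in the cells that held it the medians were 1152 and 679. The other 5 of the 10 genes with the lowest differences, Gm11847, Gm5641, Gm9431, Gm5940 and Gm15793, are pseudogenes in the annotation, and Gm9431 and Gm15793 never exceeded 18 reads.

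At the other end, Psma6 and Tax1bp3 were called higher with many reads per cell. Psma6 encodes a subunit of the 20S proteasome. It ran from 0 to 5204 reads with a median of 1091 in Wt1-positive cells, and from 0 to 3123 with a median of 0 in Wt1-negative cells. It was found in 12 of 17 (70.6%, 44.04 to 89.7) and 9 of 38 cells (23.7%, 11.4 to 40.2), a difference of 46.9 points. Tax1bp3, a small PDZ-domain protein that binds β-catenin and other partners, was found in 10 of 17 and 7 of 38 cells, with medians of 1105 and 0 reads and a difference of 40.4 points. In the 3 stromal cells with Wt1 between the limits, neither gene was found.

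The rest of the 10 largest differences were spread over genes of many functions. Ubqln2, a ubiquilin that shuttles proteins to the proteasome, was found in 10 of 17 and 4 of 38 cells (48.3 points). Rnf7, the RING subunit of cullin ubiquitin ligases, was found in 9 and 3 (45.05 points). Ctr9, of the PAF1 transcription elongation complex, was found in 9 and 4 cells, and in 5 and 0 at 100 reads. These genes had high shares in the positive class but differed in level: in the cells that held it, Ubqln2 had a median of 98.5 reads in Wt1-positive and 1460.5 in Wt1-negative cells. Cdc42bpa, a kinase downstream of Cdc42, was found in 13 and 13 cells (42.3 points), and Slc44a1, a choline transporter, in 16 and 20 (41.5 points). At 100 reads the calls of Ubqln2 (21.5 points), Cdc42bpa (26.6), Slc44a1 (16.7) and Ctr9 (29.4) were lost. The pseudogenes Gm13597 and Gm14287 complete the 10 and never exceeded 52 reads.

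Transcription factors of position and mesoderm lay on both sides. Of 14 that passed the filter, 1 was called higher and none lower, compared with 2.33% and 0.596% of all genes. Their median was 4.33 points against 3.25 over all genes. Meis2, a homeodomain partner of Hox proteins, ran from 0 to 669 reads with a median of 12 in Wt1-positive cells and from 0 to 1028 with a median of 0 in Wt1-negative cells. It was found in 11 of 17 (64.7%, 38.3 to 85.8) and 9 of 38 (23.7%, 11.4 to 40.2), a difference of 41.02 points, but at 100 reads in 6 and 6 cells. Hoxa5 was found in 6 of 17 and 4 of 38 cells, with the same counts at 100 reads (24.8 points). Nr2f2, the orphan receptor COUP-TFII, was found in 0 of 17 and 11 of 38 (-28.9 points, and -15.8 at 100 reads). Prrx1, a homeobox gene of limb and stromal mesenchyme, was found in 9 of 17 and 31 of 38 (-28.6 points), with medians of 3 and 512.5 reads. Foxp2 was found in 2 and 13 cells (-22.4 points). Among other factors tied to Wt1 in development, Tcf21 was found in 2 of 17 and 5 of 38 cells, Gata6 in 6 and 10, Osr1 in 7 and 16, and Tbx18 in 0 and 2.

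Genes reported as direct or indirect WT1 targets did not share a direction. Of 11 that passed the filter, none was called in either direction, compared with 2.33% of all genes called higher and 0.596% lower. A larger share in Wt1-positive cells was held by 7 of the 11, compared with 59.3% of all genes. Their median was 4.33 points against 3.25 over all genes. Vegfa, the vascular growth factor, was found in 10 of 17 and 12 of 38 cells (27.2 points), Egfr in 9 and 15, and Igf1r in 8 and 14. The most negative differences were those of Csf1, the macrophage growth factor, in 8 and 26 cells (-21.4 points), Bmper, a BMP-binding protein, in 1 and 10 (-20.4 points), and Myc in 5 and 18 (-18.0 points). Podxl, the podocyte sialomucin, did not pass the filter, with 3 of 17 and 0 of 38 cells. None of 7 retinoid genes was called either. Aldh1a3, a retinaldehyde dehydrogenase, was found in 1 and 11 cells (-23.1 points).

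Of the 49 genes of matrix glycoproteins and proteoglycans, 3 were called higher and none lower, compared with 2.33% and 0.596% of all genes, with a median of 0 points against 3.25. Mfap4, a microfibril-associated protein of elastic fibres, was the clearest. It ran from 0 to 8909 reads with a median of 1782 in Wt1-positive cells and from 0 to 12701 with a median of 0 in Wt1-negative cells. It was found in 10 of 17 (58.8%, 32.9 to 81.6) and 9 of 38 (23.7%, 11.4 to 40.2), a difference of 35.1 points. Cells 18 and 29 were not among the 10. Lama4, a laminin chain of vascular and adipocyte basement membranes, was found in 16 and 23 cells (33.6 points), and Podn, a leucine-rich proteoglycan, in 9 and 8 (31.9 points). Both calls were lost at 100 reads (17.96 and 28.02 points) and with Wt1 at 100 recovered reads (28.4 and 23.4). Mgp, the inhibitor of calcification, was not called but was abundant, with medians of 7317 and 1702 reads. It was found in 15 of 17 and 24 of 38 cells (25.1 points), and at 100 reads the difference was 30.3 points.

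Other matrix genes had smaller shares in Wt1-positive cells, without reaching 30 points. Perlecan, encoded by Hspg2, was found in 8 of 17 and 26 of 38 cells (-21.4 points), Lama2 in 10 and 30 (-20.1 points) and Sparcl1 in 3 and 14 (-19.2 points). None of 15 collagen genes was called, compared with 2.33% of all genes called higher and 0.596% lower. Col15a1, a basement membrane collagen, was found in 12 and 17 cells (25.9 points, but 0.464 at 100 reads), and Col4a2 in 7 and 22 (-16.7 points). None of 24 protease and inhibitor genes was called, and the lowest of them was Htra1, a secreted serine protease, in 12 and 37 cells (-26.8 points).

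Signaling lists gave few calls, and over all genes 2.33% were called higher and 0.596% lower, with a median of 3.25 points. Of 20 TGF-β and BMP genes, Gdf10 alone was called, and the median was 0.464 points. The BMP receptor Bmpr1a, with 9 of 17 and 9 of 38 cells (29.3 points), was highest. At 100 reads it reached 31.3 points, and over the 14 alternatives of the closing section it ran from 28.6 to 37.2. The inhibitor Id2, with 5 and 20 cells (-23.2 points), was lowest after Gdf10. None of 17 Wnt genes was called. Tcf7l2, a transcription factor of the pathway, came nearest with 10 and 11 cells (29.9 points). At 100 reads it reached 33.9 points, and over the same alternatives it ran from 29.1 to 36.9. The secreted Wnt inhibitor Sfrp4 was lowest with 5 and 18 cells (-18.0 points). None of 19 IGF, PDGF and FGF genes was called, with Fgf7, the keratinocyte growth factor, lowest at 1 and 11 cells (-23.1 points).

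Lists of adipose stromal states held 2 called genes, Gdf10 and Nfia. Over all genes, 2.33% were called higher and 0.596% lower, with a median of 3.25 points. None of 24 adventitial progenitor genes was called (median 4.02 points): Pi16 was found in 14 of 17 and 29 of 38 cells, Dpp4 in 7 and 17 and Ly6c1, a neighbour of Ly6a in the same family, in 10 and 29. None of 15 committed preadipocyte genes was called (median -0.929 points), with Pparg in 0 and 2 cells and Icam1 in 3 and 11. F3-positive regulatory stroma is a fat population that restrains adipogenesis. Of its 10 genes, 8 had a smaller share in Wt1-positive cells, compared with 39.9% of all genes, and the median was -9.67 points. Only 1, Gdf10, was called lower, a call that was lost at 100 reads (-27.7 points). F3 itself was found in 5 and 16 cells, whereas Mgp, of the same list, went the other way. Among 19 adipogenic regulators Nfia was called higher, with 17 of 17 and 25 of 38 cells (34.2 points), but at 100 reads it was found in 5 and 14 cells and the direction turned. Ebf1, an early B-cell factor that drives adipocyte fate, was found in 11 and 32 cells, and in 5 and 24 at 100 reads.

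**Figure D5:**
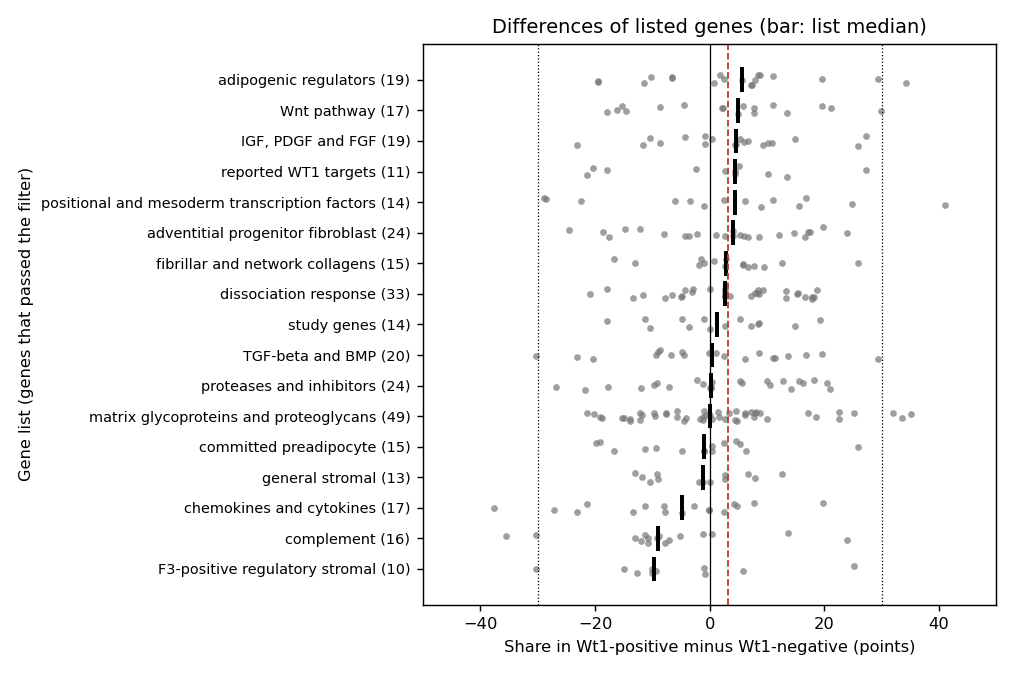
Each grey point is a gene of a list that passed the filter, placed by the share of Wt1-positive cells minus the share of Wt1-negative cells in percentage points; black bars are list medians, the dashed line is the median over all 5202 genes (3.25 points) and the dotted lines mark 30 points. Lists with at least 10 such genes are drawn. Their medians run from -9.67 for F3-positive regulatory stroma to 5.57 for adipogenic regulators, and few genes pass the dotted lines.

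Of the genes taken from the study, 14 passed the filter and none was called, compared with 2.33% of all genes called higher and 0.596% lower. They include Dpp4 and Icam1, which the study names for subcutaneous fat and not for the primary cells. Cd34, a progenitor antigen of vessels and stroma, came nearest, with 14 of 17 and 24 of 38 cells (19.2 points). That difference was 9.06 points with Wt1 at 100 recovered reads and 6.84 with any Wt1 above 0, but 26.5 with Cd34 detected at 10 or at 100 reads. Pdgfrb was found in 7 and 10 cells, Tgfbr2 in 14 and 28, Klf4 in 16 and 33 and Cd44 in 7 and 16. Anxa1 was found in every cell of both classes. Mcam was found in 0 cells of either class, which leaves room for shares of up to 17.6% and 7.89% by the limit of 3 cells, and of up to 19.5% and 9.25% by the exact interval.

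Among markers of other cell types, at least 3 endothelial markers at 100 reads were found in 0 of 17 Wt1-positive cells and in 1 Wt1-negative cell, number 34, and in 24 of the 27 cells outside the stromal class. At least 1 smooth muscle or pericyte marker at 100 reads was found in 15 of 17 and 30 of 38 cells. Of these markers, Myl9 was found in 5 and 9 cells and Cald1 in 15 and 26, while Rgs5 was at 0, and the reads summed over that list had medians of 2016 and 1091.5. At least 1 adipocyte marker at 100 reads was found in 14 of 17 and 27 of 38 cells. Lpl, a lipoprotein lipase that stromal cells of fat also express, was found in 16 and 34. Fabp4 was found in 17 and 36 cells, but at 100 reads in 1 and 5, and Adipoq in 0 and 1, with medians of 2338 and 875.5 reads summed over the adipocyte list. The part of these markers in the called genes was not tested. No blood cell, Schwann cell or cell cycle marker passed the filter on genes. None of 33 dissociation response genes was called, compared with 2.33% of all genes called higher and 0.596% lower. The lowest was Ier2 with 13 and 37 cells. At least 1 Y-linked gene was found in 11 of 17 and 20 of 38 cells, so cells of male mice were in both classes.

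RefSeq promoter windows of GRCm38.p6, from 250 bases before to 50 after a start site, were searched on both strands for GCGGGGGCG, a sequence that WT1 shares with EGR1, and for GCGTGGGAG, a WT1 sequence, using the first window of each symbol. Windows were held for 79 of the 121 genes called higher and 15 of the 31 called lower. The first motif was in 4 of the 79 (5.06%) and 0 of the 15, compared with 6.02% of the 3175 compared genes with a window and 2.92% of all 27025 windows. The second was in none of either, compared with 0.787% and 0.444%. A match is letters in a window and not a binding site, and the files themselves were aligned to another build. As an example of a called gene with a match, the window of Agap1 is shown, with the motif in capitals (GRCm38.p6, chr1:89454561-89454860, plus strand). Agap1 encodes a regulator of endosome traffic and was found in 13 of 17 and 15 of 38 cells. It was chosen after its values were seen.
Agap1: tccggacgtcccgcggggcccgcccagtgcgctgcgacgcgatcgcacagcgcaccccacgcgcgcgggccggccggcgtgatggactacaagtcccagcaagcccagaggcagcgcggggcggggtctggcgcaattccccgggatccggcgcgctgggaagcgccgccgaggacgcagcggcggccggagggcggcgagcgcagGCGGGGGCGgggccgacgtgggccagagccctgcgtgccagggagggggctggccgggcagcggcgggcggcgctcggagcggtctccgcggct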

How the data were processed

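After quality control of reads by FastQC, the authors ran HISAT2 2.0.5 against mm9, SAMtools 1.4 for sorting and StringTie 1.3.3 for assembly, and used scater for filtering and scaling of cells. The counting program is not given in the sources used here. The deposited unit is a signal of normalized read counts per gene, in 1 table of 16069 genes and 85 of the 94 cells described; the other 9 cells were not analysed here. No column belonged to other samples.

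Genes above 0 in at least 10 cells were either whole numbers or fell into 13 gene groups that shared a factor in a given cell, from 0.0157 to 94.5. All 144272 scaled values were whole multiples of these factors (tolerance 2e-09 of the value or, if larger, 1e-08 reads). Division gave recovered reads. The unit of the file is therefore not raw counts and no count model was run.

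A gene was found in a cell when its value was above 0, and shares of the classes were compared. Simulated data served only to check that reads were recovered and that genes set far apart in share kept their direction. That check gives no support to the genes called here. The limit of 30 points, the filter of 10 cells, the gene lists and the cells were chosen with earlier results of these data known. The genes named are those of the sort gate and of the study, up to 3 with the largest and 3 with the smallest difference of each list, 10 each way over all genes, and markers of other cell types. Members named otherwise were chosen after their values were seen. Where 0 cells held a gene, the limit is 3 cells of the total. Alternatives were other detection levels, filters and Wt1 or Dcn limits, thinned reads, log2 means (pseudocounts 1 and 10), CPM of recovered reads, and the removal of cells. Gene types came from an annotation of another build, which matched 15564 symbols. Python 3.11.15, numpy 2.4.6, pandas 2.3.3, scipy 1.17.1 and matplotlib 3.10.9 were used.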

Additional observations from a re-analysis of the deposited data

How the results depend on the processing

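No paired analysis was possible because all cells belong to 1 group and the comparison has no test. The 121 higher and 31 lower calls depended on how a gene was counted as found. At 10 reads 100 genes were higher and 20 lower, and at 100 reads 72 were higher and 20 lower with a median over all genes of 0. With any Wt1 above 0 as positive, 71 genes were higher and 25 lower. Within a shared range of 1642 to 4028 genes per cell, 96 were higher and 47 lower, and the median over all genes was 0.694 points. That median was 1.55 points for genes above 0 in at least 3 cells and 0.774 with no filter. Without cells that held 2 mesothelial markers, 150 were higher and 54 lower. Called by a difference of 3 in mean log2(value + 1), 59 were higher and 14 lower, by log2(value + 10) 7 and 0, and by log2(CPM + 1) 27 and 4. On thinned reads, 110 of the 121 and 23 of the 31 were shared with the calls on all reads. The removal of cells 18 and 29, of cell 50, or of all 3 was chosen after seeing the data. It gave 152 higher and 33 lower calls, 119 and 35, and 147 and 37. Of these, 98 and 26, 114 and 30, and 95 and 29 were shared with the calls on all cells.

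In 14 alternatives on shares, 8 genes stayed at least 30 points higher (Acsl5, Agap1, Gadd45b, Gxylt2, Maged1, Mfap4, Psma6, Tax1bp3) and 5 at least 30 points lower (Adh1, Ccl11, Dusp11, Irf2bpl, Procr). With the 3 alternatives on means added, Mfap4, Psma6 and Tax1bp3 remained, and no lower gene did. Among all called genes, the direction turned at 10 reads for Gm13597 and Gm6142 (-2.63 points each) and Gm8666 (-7.28), and at 100 reads for Nfia (-7.43) and C1s2 (9.13). The Ly6a difference ran from -31.2 to -17.4 points, the latter without cells 18 and 29. Of the list medians, those of complement, chemokines and cytokines, F3-positive regulatory stroma and committed preadipocytes were below 0 in all 14, whereas those of WT1 targets, Wnt and TGF-β genes took both signs. The cause of these shifts was not tested. A single sample of 17 and 38 cells, with no animal named, sets no error on any difference between the classes.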

Other observations

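Ccl11, Procr and Gdf10 were chosen as a set after their values were seen, each being called lower in Wt1-positive cells. A larger share of Wt1-positive cells with none of the 3 largely follows from that choice and is not a separate result. None of the 3 was found in 12 of 17 Wt1-positive cells and in 7 of 38 Wt1-negative cells. Of the stromal cells with Wt1 between the limits, 2 of 3 held Ccl11, 1 held Gdf10 and 0 held Procr, all 3 held Ly6a and Mgp, and 2 held Mfap4 and Meis2.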
